A study of Mus musculus with 24 samples.

Results

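Mammary epithelium makes medium chain fatty acids of milk from citrate, and the genes described here encode that route: Slc25a1, Acly, Acss2 and Me1 on the supply side, the carboxylases Acaca and Acacb, the synthase Fasn with its companion Thrsp, and the chain-ending thioesterase Olah. They were chosen by name, as 9 symbols among the 32544 of the deposited expression table, and all 9 were found and passed the filter on low values (16907 genes did). Their levels are compared with those of all tested genes after the milk protein genes had been left out.

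The series measured polyadenylated RNA of snap-frozen inguinal mammary glands of mice with 2 genotypes, BL/6 C57 and BL/6 NZB, sampled without lactation (labelled non-lactating) or on lactation day 8, 14 or 21. Each of the 8 groups held 3 mice, 24 in all, numbered F1 to F3 in the titles, and every group carries the BL/6 name. In this field such names stand for a BL/6 nuclear genome with the mitochondrial DNA of the named strain; the labels themselves give the names alone. No source used here gives age, litter size or whether the non-lactating mice had been pregnant.

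Fatty acid synthesis starts when SLC25A1 carries citrate out of the mitochondrion and ACLY splits it to acetyl-CoA in the cytosol, while ACSS2 makes acetyl-CoA from acetate and ME1 yields NADPH. ACACA and ACACB carboxylate acetyl-CoA to malonyl-CoA, the first in the cytosol and the second at the mitochondrial surface, and FASN then extends the chain until a thioesterase releases it. The thioesterase within FASN releases palmitate, whereas OLAH, found in lactating mammary epithelium, releases medium chains of the kind that mark milk fat. White adipocytes use the same route, and they fill most of the mammary fat pad outside lactation.

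Values are given as non-milk CPM, counts scaled to a fixed library total: the deposited log10 values were turned back to CPM, both columns of a mouse were averaged, 17 milk protein genes were removed, and the rest was rescaled to a total of 1000000. Those 17 genes held at most 1.96% of counts in non-lactating glands, 61.4% to 75.9% in C57 lactating glands, 67.7% to 74.9% in NZB glands on days 8 and 14, and 17.9% to 30.1% in NZB glands on day 21. On the deposited scale the median tested gene shifted by −1.81 (log2) in C57 on day 8 against non-lactating glands, and by 1.36 in NZB on day 21 against day 14. The non-milk scale brought these medians to −0.31 and 0.28, and for the 9 genes the text gives the deposited value where a called difference turns sign. Depth ran from 7032000 to 24253000 reads a mouse (rounded). C57 non-lactating replicate 2 was the shallowest, with 2175000 reads in its first column and 11889000 in its second. C57 non-lactating replicate 3 is C57 in its title and NZB in its genotype tag, and is kept as C57; without it every C57 count of calls below was the same but that of day 14 against non-lactating glands, which gained Thrsp (1.14, adjusted p = 0.029). NZB non-lactating replicates 2 and 3 held 556 and 1421 non-milk CPM of 8 lymphocyte markers, against 17.4 in replicate 1. In a bulk gland, fewer cells of a type and less RNA per cell cannot be told apart, for every value below.

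Bases from the 250 before the first listed RefSeq start (GRCm38.p6) are shown for 3 of the genes, up to the first GENCODE exon in that window, because Fasn and Acacb both fell in NZB glands by day 21 on the non-milk scale, and Olah moved over the widest range. Capitals mark the CCAAT box, the letters CCAAT on either strand, a common promoter element.
Fasn, minus strand, chr11:120824548-120824797: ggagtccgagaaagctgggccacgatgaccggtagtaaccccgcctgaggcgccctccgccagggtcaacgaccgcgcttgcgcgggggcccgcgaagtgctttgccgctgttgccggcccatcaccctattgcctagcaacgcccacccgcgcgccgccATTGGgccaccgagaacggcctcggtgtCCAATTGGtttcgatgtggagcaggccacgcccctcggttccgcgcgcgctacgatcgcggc
Acacb, plus strand, chr5:114165268-114165508: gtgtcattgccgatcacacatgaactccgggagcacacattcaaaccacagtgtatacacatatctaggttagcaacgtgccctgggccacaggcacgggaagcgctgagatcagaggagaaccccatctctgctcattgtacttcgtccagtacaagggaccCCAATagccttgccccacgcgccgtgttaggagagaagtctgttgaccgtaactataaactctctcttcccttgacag
Olah, minus strand, chr2:3366601-3366819: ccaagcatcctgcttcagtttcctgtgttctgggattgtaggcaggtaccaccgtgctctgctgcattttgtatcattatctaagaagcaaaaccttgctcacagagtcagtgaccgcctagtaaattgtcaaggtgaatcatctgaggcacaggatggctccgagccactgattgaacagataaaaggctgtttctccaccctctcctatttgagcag
Fasn had 3 matches, at 90, 62 and 59 bases before the start, and the last 2 share letters in one run. Thrsp had 2, at 79 and 52 bases, and Acacb had 1, at 87 bases. Among the 9 genes 5 held a CCAAT match in this window, with Slc25a1 and Acss2 as the others, beside 34.5% of 27025 RefSeq windows of the same length. Olah, Acly, Acaca and Me1, which also fell in NZB from day 14 to day 21 on the non-milk scale, had no match there. Whether these letters go with the falls was not tested. The E box CACGTG was found in Slc25a1 alone of the 9 and in 6.05% of all windows. TTCNNNGAA, the letters of a STAT motif, and TCACNCCAC, the core of a sterol element, were in none of the 9 and in 7.18% and 1.04% of all windows. GGGCGG, the GC box, was in 4 of the 9 and 32.9% of all windows, and CACCCNA, a short sterol element core, in 2 and 13.7%. Both strands were searched, and a window without a match says only that these letters are not in it. The Olah, Acacb and Acaca windows lie inside the GENCODE span of their genes, whose annotated ends reach further upstream. The Acacb match counted above thus lies within its gene, and whether these windows act as promoters was not tested. GENCODE exons cover 180 bases of the Thrsp window and 95 of the Acss2 window, and the CCAAT matches of both genes lie in those stretches. The GC box matches of Acss2 at 241, 140 and 102 bases before the start lie upstream of its exon, and the one at 37 bases lies within it.

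Olah went from near the floor of detection to one of the most abundant transcripts of the gland. Olah (ENSMUSG00000026645, chr2:3341982-3397210, minus strand) stood at 1.83, 1.90 and 1.77 non-milk CPM in C57 non-lactating mice, from 26, 23 and 28 reads in the deeper column. It stood at 933, 1362 and 1384 in C57 mice on day 8, at 951, 1472 and 1533 on day 14 and at 1026, 1504 and 1493 on day 21. The C57 lactating groups overlapped one another and lay far above the non-lactating mice. NZB non-lactating mice held 9.71, 6.16 and 11.5, from 124, 74 and 114 reads. NZB mice then held 2103, 1245 and 1715 on day 8, 1005, 1234 and 647 on day 14, and 112, 53.0 and 31.7 on day 21. Every NZB day 21 mouse thus lay below every other lactating mouse and above every non-lactating one. On day 8 against non-lactating glands the log2 difference was 8.74 in C57 (SE 0.34, adjusted p = 1.3e-14) and 7.39 in NZB (SE 0.34, adjusted p = 1.9e-13). The deposited scale gave 6.80 and 5.48, so the direction held on both. By the mean level the order ran from NZB day 8 through C57 days 21, 14 and 8 to NZB day 14, all overlapping their neighbours, and then stepped down without overlap to NZB day 21, NZB non-lactating and C57 non-lactating mice. Per kilobase of its 1764-base transcript Olah ranked 13561 of 16378 genes in C57 non-lactating glands, 42 on day 8 and 45 on day 21, and in NZB glands 35 on day 8 and 1557 on day 21.

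Fasn was already among the most abundant transcripts outside lactation, and lactation did not detectably raise it. Fasn (ENSMUSG00000025153, chr11:120805846-120824547, minus strand) stood at 16249, 7404 and 16849 non-milk CPM in C57 non-lactating mice and at 12866, 15134 and 15465 on day 8. On days 14 and 21 the C57 mice held 10385 to 14806 and 10457 to 13351. All these groups overlapped, and C57 non-lactating replicate 2 was the low value. NZB non-lactating mice spread over 26249, 17961 and 8326, and NZB mice on day 8 held 17570, 12643 and 15705. Levels were 10341, 14484 and 7830 on day 14 and 5196, 2980 and 2815 on day 21. The 3 NZB day 21 mice were the lowest of the 24. Against non-lactating glands the C57 day 8 difference was 0.19 (SE 0.42, adjusted p = 0.75) and in NZB −0.06 (SE 0.42, adjusted p = 0.92) on the non-milk scale. The deposited scale gave −1.75 and −1.96 (adjusted p = 9.7e-05 and 2.4e-05), near the shift of the median gene. Fasn ranked 21 to 31 per kilobase in 7 groups and 81 in NZB glands on day 21.

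**Figure D1:**
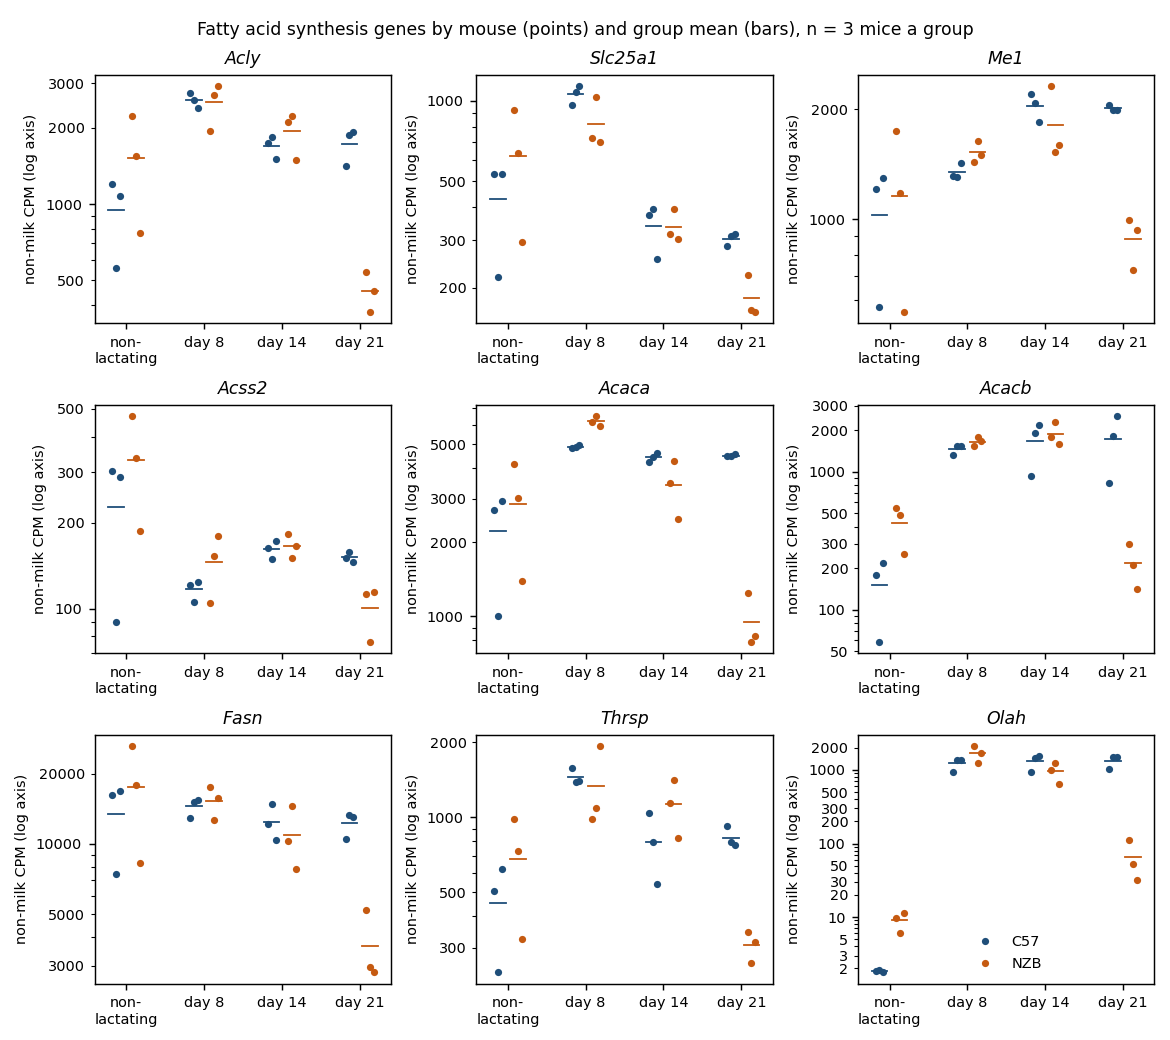
Level of each gene in non-milk CPM on a log axis, with 1 point for each mouse and a bar at the mean of 3 mice, for C57 (blue) and NZB (orange) at each stage. Olah rises from 1.77 to 11.5 in non-lactating mice to 647 or more on days 8 and 14, and the NZB day 21 mice lie below the C57 day 21 mice in all 9 panels; on the deposited scale the means of Me1, Acss2 and Slc25a1 turn the other way on day 21.

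Thrsp, or Spot 14, a small protein that goes with high rates of fatty acid synthesis in fat, liver and mammary gland, rose on day 8. Thrsp (ENSMUSG00000035686, chr7:97412938-97417730, minus strand) held 504, 239 and 622 non-milk CPM in C57 non-lactating mice and 1572, 1388 and 1399 on day 8. C57 mice held 542 to 1044 on day 14 and 776 to 918 on day 21. NZB mice went from 985, 733 and 325 through 984, 1094 and 1927 on day 8 and 1144, 1412 and 827 on day 14 to 346, 259 and 316 on day 21. The C57 day 8 mice all lay above the C57 non-lactating mice, while in NZB the lowest day 8 mouse lay just under the highest non-lactating one. On day 8 the non-milk difference was 1.78 in C57 (SE 0.36, adjusted p = 0.00034) and 1.05 in NZB (SE 0.36, adjusted p = 0.021), beside −0.15 and −0.86 on the deposited scale. The NZB call was lost without NZB non-lactating replicate 3 (0.59, adjusted p = 0.18) or day 8 replicate 3 (0.75, adjusted p = 0.13).

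Acaca, the cytosolic carboxylase and the committed step of the pathway, rose in both genotypes on day 8. Acaca (ENSMUSG00000020532, chr11:84129672-84401651, plus strand) held 2709, 1003 and 2932 non-milk CPM in C57 non-lactating mice. In C57 it held 4805, 4857 and 4960 on day 8, 4242, 4421 and 4600 on day 14, and 4458, 4451 and 4540 on day 21. The C57 lactating mice were tightly grouped, and all lay above the non-lactating ones. NZB mice held 4161, 3012 and 1395 without lactation and 6129, 6496 and 5929 on day 8. They held 3482, 4264 and 2488 on day 14 and 1237, 785 and 831 on day 21. The NZB day 14 mice all lay below those of day 8, but the step did not pass the test (−0.89, adjusted p = 0.32). Day 8 differences were 1.29 in C57 (SE 0.36, adjusted p = 0.0059) and 1.25 in NZB (SE 0.36, adjusted p = 0.0069), and −0.65 and −0.66 on the deposited scale. Without C57 non-lactating replicate 2 the C57 value was 0.79 (adjusted p = 0.066), and without NZB non-lactating replicate 3 the NZB value was 0.80 (adjusted p = 0.063).

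Acacb, whose malonyl-CoA is known to curb fatty acid entry into mitochondria, had the largest log2 difference after Olah on day 8. Acacb (ENSMUSG00000042010, chr5:114146535-114250761, plus strand) held 177, 58.1 and 218 non-milk CPM in C57 non-lactating mice and 1320, 1540 and 1537 on day 8. It reached 938, 1894 and 2189 on day 14 and 832, 1812 and 2530 on day 21, so that C57 replicate 1 was the low mouse on both days. NZB non-lactating mice held 546, 487 and 252, all above the C57 ones. NZB mice held 1523, 1775 and 1659 on day 8, 1771, 2285 and 1586 on day 14, and 301, 211 and 140 on day 21. The NZB day 21 mice overlapped the non-lactating mice of both genotypes. Day 8 differences were 3.47 in C57 (SE 0.43, adjusted p = 1.0e-06) and 2.02 in NZB (SE 0.43, adjusted p = 0.00062). They were 1.53 and 0.11 on the deposited scale, where the NZB value did not pass the test (adjusted p = 0.78).

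Acly, which makes cytosolic acetyl-CoA from citrate, followed Acaca. Acly (ENSMUSG00000020917, chr11:100476353-100528000, minus strand) held 1204, 558 and 1081 non-milk CPM in C57 non-lactating mice, 2742, 2584 and 2394 on day 8, and 1409 to 1920 on days 14 and 21. NZB mice held 2232, 1550 and 771 without lactation, 1947, 2690 and 2934 on day 8, 2105, 2234 and 1500 on day 14, and 539, 375 and 454 on day 21. The NZB day 21 mice were the only group below all C57 non-lactating mice. On day 8 the non-milk differences were 1.51 in C57 (SE 0.31, adjusted p = 0.00043) and 0.84 in NZB (SE 0.31, adjusted p = 0.032), beside −0.42 and −1.06 on the deposited scale. The NZB call was lost without NZB non-lactating replicate 3 (0.42, adjusted p = 0.26) and without day 8 replicate 2 (0.78) or 3 (0.72).

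Slc25a1, the citrate carrier, had its highest mean on day 8 in both genotypes, with a called rise in C57 alone. Slc25a1 (ENSMUSG00000003528, chr16:17925223-17928219, minus strand) ranged from 959 to 1136 non-milk CPM in C57 mice on day 8, from 256 to 394 on day 14 and from 285 to 316 on day 21, against 218 to 533 without lactation. The NZB ranges were 702 to 1030, 304 to 393, 162 to 223, and 296 to 919 without lactation. In C57 it rose by day 8 on the non-milk scale (1.41, SE 0.33, adjusted p = 0.0012), with −0.52 on the deposited scale. It then fell from day 8 to day 14 by 1.65 (SE 0.33, adjusted p = 0.0076; −1.48 on the deposited scale). That fall did not pass the test in NZB (−1.26, adjusted p = 0.087), nor in C57 without day 14 replicate 3 (−1.46, adjusted p = 0.059). The NZB rise by day 8 did not pass either (0.53, limma adjusted p = 0.19), beside −1.37 on the deposited scale. C57 days 14 and 21 and NZB day 14 were not called against non-lactating glands (limma adjusted p = 0.61, 0.40 and 0.072). NZB day 21 was called lower (−1.62, limma adjusted p = 0.00060).

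Me1, which supplies NADPH as it turns malate to pyruvate, was called higher than in non-lactating glands on day 14 but not on day 8. Me1 (ENSMUSG00000032418, chr9:86581371-86695953, minus strand) ranged from 575 to 1297 non-milk CPM in C57 non-lactating mice, 1303 to 1426 on day 8, 1850 to 2204 on day 14 and 1996 to 2057 on day 21. In NZB mice it ranged from 557 to 1741 without lactation, 1435 to 1641 on day 8, 1526 to 2322 on day 14 and 724 to 994 on day 21. Against non-lactating glands it rose in C57 on day 14 (1.08, SE 0.31, adjusted p = 0.0088) on the non-milk scale, with −0.69 on the deposited scale. The call was lost without C57 non-lactating replicate 2 (0.70, adjusted p = 0.083). NZB day 14 was near the threshold (0.77, limma adjusted p = 0.049), with −1.03 on the deposited scale. From day 8 to day 14 Me1 was called in neither genotype (0.60 in C57 and 0.23 in NZB, limma adjusted p = 0.41 and 0.82).

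Acss2, the acetate-using route to acetyl-CoA, was the one gene of the 9 called lower on day 8, in NZB alone. Acss2 (ENSMUSG00000027605, chr2:155517948-155585724, plus strand) ranged from 89.4 to 303 non-milk CPM in C57 non-lactating mice and from 105 to 173 in all 9 C57 lactating mice. NZB mice held 188 to 472 without lactation, 104 to 182 on days 8 and 14, and 76.2 to 114 on day 21. In NZB it fell on day 8 by 1.12 (SE 0.34, adjusted p = 0.0094; −3.00 on the deposited scale), a call lost without NZB day 8 replicate 1 (−0.90) or non-lactating replicate 1 (−0.82). With TMM factors none of the 9 was called lower in NZB on day 8 or 14 against non-lactating glands. With only the groups compared none was called lower on day 14. The C57 value of −0.76 did not pass the test (adjusted p = 0.075), but did without non-lactating replicate 2 (−1.33, adjusted p = 0.00045). Acss2 overlaps Gss on the other strand over 22544 bases, and as the strand of counting is not given in the sources used here its counts are less certain. Gss averaged 30.8 non-milk CPM.

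Taking the 9 genes as a group, several rose with lactation on the non-milk scale in both genotypes. In C57, 6 rose and none fell on day 8 against non-lactating glands (limma, adjusted p under 0.05), where 12.5% of all tested genes rose and 31% fell. The 6 were Olah, Acacb, Thrsp, Acly, Slc25a1 and Acaca, and the median over the 9 was 1.41, against −0.31 over all tested genes. On day 14, 5 rose (background 13.3% higher and 24.5% lower, median 0.91). On day 21, 6 rose (background 13.1% and 25.5%, median 0.97), with Me1 and Thrsp and without Slc25a1. In NZB, 5 rose and 1, Acss2, fell on day 8 (background 14.3% and 32.3%, median 0.84). On day 14, 3 rose, Olah, Acacb and Me1, and Acss2 fell (background 14.8% and 30.6%, median 0.47). With TMM factors Acss2 was called lower on neither day. None of these comparisons is independent of the others within a genotype, since they share the 3 non-lactating mice. Medians of the 9 on the deposited scale were −0.52, −0.85 and −0.80 in C57 and −1.06 and −1.34 in NZB, each above the median of all genes, and 2 rose in C57 on each day (Olah and Acacb) and 1 (Olah) in NZB. On that scale 3, 5 and 5 of the 9 were called lower in C57, and 6 and 7 in NZB. Most genes were: 14350, 13944 and 13984 of all genes were lower in C57, and 14319 and 14148 in NZB. Higher were 350, 418 and 405 in C57, and 481 and 587 in NZB. Without C57 non-lactating replicate 2 the C57 counts were 5 higher and 1 lower on day 8, 2 higher and 1 lower on day 14, and 2 higher and 2 lower on day 21. Without NZB non-lactating replicate 3, NZB glands had 2 higher and 1 lower on day 8. On day 14 in NZB, 2 remained called without NZB day 14 replicate 2 or non-lactating replicate 2, Olah and Acacb, with Me1 at 0.88 and 0.86. Without NZB non-lactating replicate 3 that day had 2 higher and 3 lower, with Fasn (−1.04) and Slc25a1 (−1.19) called lower and Me1 lost. Without replicate 1 it had 5 higher and none lower, with Acly (0.81) and Thrsp (1.17) gained and Acss2 lost. In C57 the call of Thrsp on day 21 was lost without any 1 of the 3 day 21 mice (0.90 to 1.02), and that of Acly without day 14 replicate 1 or 2 (0.89 and 0.85) or day 21 replicate 2 or 3 (0.87 and 0.85).

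**Figure D2:**
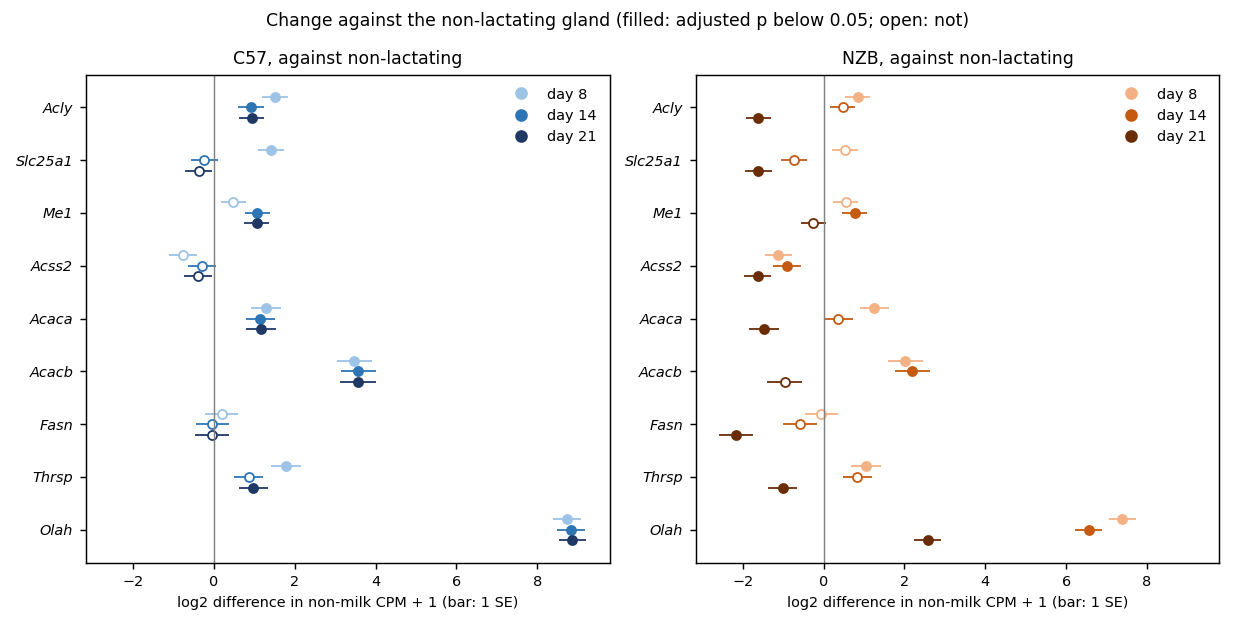
Log2 difference in non-milk CPM + 1 of each gene between lactating and non-lactating glands, with a bar of 1 SE, for C57 (left) and NZB (right) on days 8, 14 and 21. Olah stands apart near 8.74 in C57, Fasn sits near 0 in C57, and in NZB on day 21 Olah alone is called higher; on the deposited scale Acaca, Acly, Me1 and Thrsp turn below 0 in both genotypes on days 8 and 14.

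During lactation 1 of the 9 was called between successive days in C57, from day 8 to day 14, whereas 7 fell in NZB from day 14 to day 21 on the non-milk scale. From day 8 to day 14 Slc25a1 alone was called in C57, as 1 of 9 lower (background 1.4% higher and 0.686% lower). With only the groups compared in the fit, 1 was called higher and 2 lower, beside 651 and 287 of all genes. Without overlap between these days, 2 of the 9 lay higher and 4 lower on day 14, a pattern not counted over all genes. None of the 9 was called in NZB over that interval by limma (background 0.219% and 0.248%), with 3 at an unadjusted p under 0.05 (Acaca, Olah and Slc25a1) and none by limma voom. From day 14 to day 21 none was called in C57 (background 0%), none passed an unadjusted p of 0.05, and none was called by limma voom. In NZB, 7 of 9 fell over that interval (background 16.5% higher and 5.67% lower), and all 9 had every day 21 mouse below every day 14 mouse, as did 10.1% of tested genes. Olah fell by 3.99 (SE 0.34, adjusted p = 6.0e-08), from a mean of 962 to 65.7 non-milk CPM. Acacb fell by 3.16 (SE 0.43, adjusted p = 3.7e-05), Acly by 2.09, Thrsp by 1.85, Acaca by 1.84, Fasn by 1.58 (SE 0.42, adjusted p = 0.0092) and Me1 by 1.02. Slc25a1 (−0.89, adjusted p = 0.055) and Acss2 (−0.73, adjusted p = 0.13) did not pass. Without NZB day 14 replicate 2 the call of Fasn was lost (−1.35, adjusted p = 0.059), and without NZB day 14 replicate 1 or day 21 replicate 2 that of Me1 (−0.83 and −0.89). By the deposited scale 3 of the 9 fell, Olah (−2.57), Acacb (−1.74) and Acly (−0.67), while Me1 (0.39), Slc25a1 (0.52) and Acss2 (0.67) had positive values that did not pass. The median tested gene was at 1.36 on that scale, with 13867 genes higher and 148 lower, against 2784 and 959 on the non-milk scale and 1278 and 1519 with TMM factors. Compared with NZB non-lactating glands, day 21 had 6 of the 9 lower and 1, Olah, higher (background 15.2% lower and 16.6% higher). Fasn was then lower by 2.16 (SE 0.42, adjusted p = 0.00036) and Olah higher by 2.57 (SE 0.34, adjusted p = 4.6e-06). Thrsp, at −1.02, did not pass without NZB day 21 replicate 2 or 3 or non-lactating replicate 1 or 2 (adjusted p up to 0.18).

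The genotypes differed in these genes at the ends of the time course, and by limma not detectably on days 8 and 14. In non-lactating glands 2 of 9 were higher in NZB (background 1.67% higher and 3.38% lower): Olah by 1.80 (SE 0.34, adjusted p = 0.0026) and Acacb by 1.62 (SE 0.43, adjusted p = 0.030). The Acacb call was lost without C57 non-lactating replicate 2 (1.04, adjusted p = 0.19) and without NZB non-lactating replicate 1 or 2 (1.41 and 1.49). With only these groups in the fit neither was called, and Olah had the same value, 1.80 (adjusted p = 0.22). On days 8 and 14 limma called none of the 9 (background 0.0296% higher and 0.00591% lower on each day), none passed an unadjusted p of 0.05, and limma voom called none. Every NZB mouse still lay above every C57 mouse on day 8 for Acaca (5929 to 6496 against 4805 to 4960). The same held for Me1 (1435 to 1641 against 1303 to 1426). How many of all genes did so on that day was not counted. The largest differences of these days were −0.47 for Olah on day 14 (SE 0.34) and 0.52 for Thrsp on day 14 (SE 0.36). On day 21, 7 of 9 were lower in NZB (background 19.3% higher and 5.49% lower), and in all 9 every NZB mouse lay below every C57 mouse, as in 8.97% of tested genes. Olah was lower by 4.50 on the log2 scale (value −4.50, SE 0.34, adjusted p = 6.3e-09), from means of 1341 in C57 and 65.7 in NZB, a 20.4-fold difference of means. Acacb differed by −2.91 (SE 0.43, adjusted p = 5.9e-05), Acaca by −2.27 (SE 0.36, adjusted p = 0.00012) and Acly by −1.93 (SE 0.31, adjusted p = 0.00014). Fasn differed by −1.79 (SE 0.42, adjusted p = 0.0032), with means of 12265 and 3664, Thrsp by −1.44 and Me1 by −1.20. Slc25a1 (−0.74, adjusted p = 0.099) and Acss2 (−0.60, adjusted p = 0.20) did not pass, and stood at 0.62 and 0.75 on the deposited scale. The deposited scale had 3 lower, Olah (−3.12), Acacb (−1.54) and Acaca (−0.89), beside a median of 1.35 over all genes, and Me1 was at 0.17. Over all tested genes 3270 were higher and 929 lower on the non-milk scale, 13774 and 162 on the deposited scale, and 1704 and 1529 with TMM factors, while 7 of the 9 were lower with TMM factors too.

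**Figure D3:**
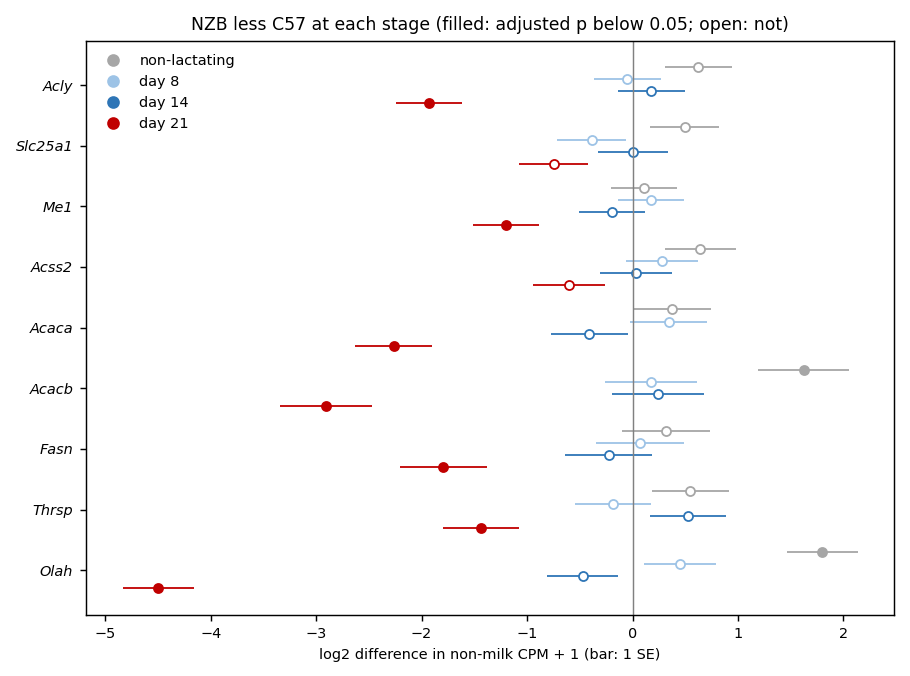
Log2 difference in non-milk CPM + 1 between NZB and C57 glands for each gene, with a bar of 1 SE, at 4 stages. Day 21 values lie from −4.50 (Olah) to −0.60 (Acss2), and the values of days 8 and 14 all lie from −0.47 to 0.52; on the deposited scale Me1, Slc25a1 and Acss2 lie above 0 on day 21.

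The change from day 14 to day 21 was tested for a difference between genotypes directly. It was more negative in NZB for 5 of 9 genes, Olah, Acacb, Acly, Thrsp and Acaca (background 4.08% higher and 2.21% lower), with a median over the 9 of −1.86. Fasn (−1.57, adjusted p = 0.11) and Me1 (−1.01, adjusted p = 0.17) did not pass, so their fall was not shown to be particular to NZB. Without C57 day 14 replicate 3, C57 day 21 replicate 2, NZB day 14 replicate 1 or 2, or NZB day 21 replicate 2, both Acaca (−1.89 to −1.68) and Thrsp (−1.99 to −1.71) missed the threshold and the count was 3. Acaca alone missed it without C57 day 14 replicate 1, C57 day 21 replicate 3 or NZB day 21 replicate 3. By the deposited scale 2 were called, Olah (−2.60) and Acacb (−1.73), and Me1, Slc25a1 and Acss2 had positive values. Over all genes that scale had 12040 higher and 85 lower. For the change from non-lactating to day 8, limma called none of the 9 (background 0.674% higher and 0.0473% lower). Acacb (−1.45) and Olah (−1.35) had an unadjusted p under 0.05, and limma voom called none.

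Ratios within a library do not depend on the milk protein share. Per kilobase Olah was 0.0900% of Fasn in C57 non-lactating glands (SD 0.0485, n = 3) and 47.9% on day 8, 61.7% on day 14 and 61.8% on day 21. In NZB it was 0.397% without lactation, 62.2% on day 8, 50.3% on day 14 and 9.63% ± 2.99 (SD, n = 3) on day 21. The NZB day 21 mice, at 12.3, 10.1 and 6.41%, lay apart from both the lactating and the non-lactating mice. Acaca made up 93.3% ± 0.772 (SD, n = 3) of both carboxylases per kilobase in C57 non-lactating glands and 75.5% ± 1.41 on day 8. In NZB the share was 85.4% without lactation, and 77.6%, 62.3% and 80.4% on days 8, 14 and 21. Acss2 per Acly stood at 33.9% (C57) and 33.6% (NZB) outside lactation, at 6.84% and 8.57% on day 8, and at 13.3% and 33.1% on day 21. Thrsp per Fasn went from 26.3% to 79.8% in C57 and from 30.8% to 69.6% in NZB by day 8, and on day 21 the genotypes overlapped (54.3% and 69.7%). Of 16 such comparisons 13 had no overlap between groups and gave an exact 2-sided permutation p of 0.1, the smallest that 3 against 3 allows (0.12 after Benjamini-Hochberg adjustment). The other 3, Thrsp per Fasn in both day 21 comparisons and the Acaca share between genotypes on day 21, gave exact permutation p values of 0.4, 0.3 and 0.3.

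**Figure D4:**
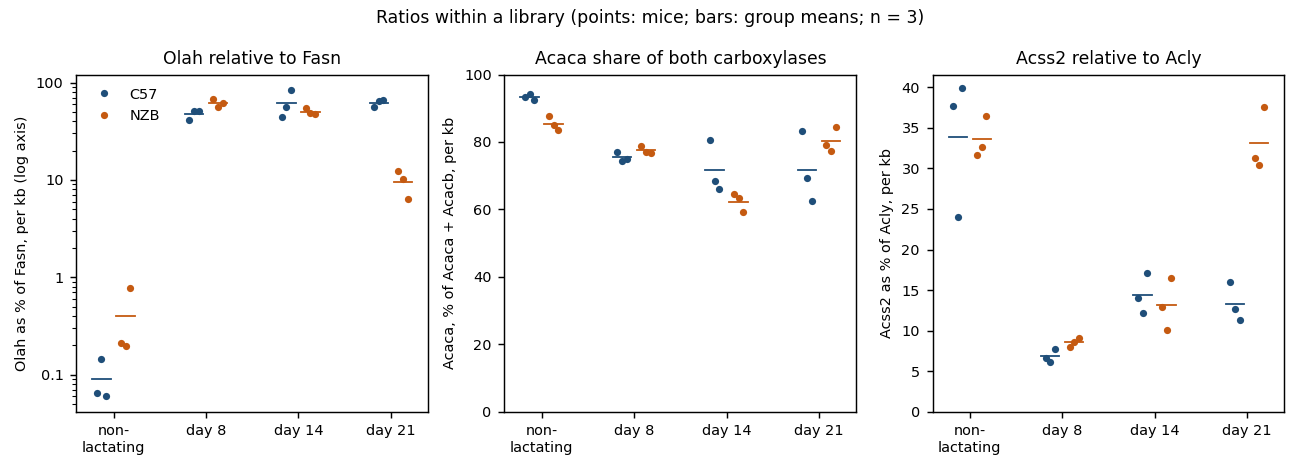
Ratios of 2 genes per kilobase of transcript within each library, in percent, with 1 point for each mouse and a bar at the mean of 3, for C57 (blue) and NZB (orange); the left axis is a log axis. Olah per Fasn is 47.9% to 62.2% on average in all lactating groups but NZB day 21 (9.63%), and Acss2 per Acly is 33.1% there, beside 33.6% in NZB non-lactating glands.

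Fasn and Olah were weakly correlated across the 24 libraries, non-lactating ones included (Pearson r = 0.14 on log2 non-milk CPM, over mice that share groups, so given without a test). Among lactating groups both had their highest mean in NZB on day 8 and their lowest in NZB on day 21. A correlation over lactating mice alone was not computed. The genes most like Olah, among 11445 with a mean of at least 5 non-milk CPM, were Lao1 (r = 0.99), an L-amino acid oxidase of milk, Gjb1 (0.99), a gap junction protein, Slc34a2 (0.99), a phosphate transporter, Fabp3 (0.99), a fatty acid binding protein, and Ccl28 (0.98), a chemokine. Lao1 averaged 13337 non-milk CPM in C57 and 487 in NZB on day 21, and Slc34a2 5772 and 80.9. Those most like Fasn were Tmem120b (0.94), Ivd (0.91), of leucine breakdown, Dbt (0.88), of branched-chain amino acid breakdown, Slc24a3 (0.88), an ion exchanger, and Coq9 (0.87), of coenzyme Q synthesis. Tmem120b averaged 55.4 non-milk CPM in C57 non-lactating glands, and 39.7 in C57 and 17.8 in NZB on day 21. Within the group Acly went most closely with Acaca (r = 0.95) and Thrsp (0.94), and Olah with Acacb (0.89).

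Further genes of the pathway were read from 5 lists, whose counts stand beside 12.5% higher and 31% lower of all tested genes in C57 on day 8, and 14.3% and 32.3% in NZB. Of 13 genes for citrate and acetyl-CoA supply, 8 rose and none fell in C57, and 8 rose and 1, Mdh2 (−0.63), fell in NZB. Acss1, mitochondrial acetyl-CoA synthetase, rose by 3.80 in C57, Dlat and Pdhb, of pyruvate dehydrogenase, by 1.73 and 1.66, and Mpc1, of the pyruvate carrier, by 1.48. By the deposited scale Acss1 alone of these 4 rose in C57 (1.88), and Dlat, Pdhb and Mpc1 were at −0.20, −0.27 and −0.44. There 1 of the list was called higher and 9 lower, beside 350 and 14350 of all genes on that scale. On day 21 in NZB 7 of the 13 were lower both against day 14 (background 5.67%) and against C57 (5.49%). Pdhb, with the smallest adjusted p, differed by −1.63 and −1.73, Acss1 by −1.80 and −1.58 and Mpc2 by −1.25 and −1.24. None of the 13 was called lower on the deposited scale in either comparison, and 5 and 6 were called higher, with list medians of 0.52 and 0.55. Over all genes that scale had 13867 and 13774 higher and 148 and 162 lower. Both comparisons use the same 3 NZB day 21 mice.

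Transcription control went both ways. Of 14 genes, 5 rose and 5 fell in C57 on day 8, beside the background shares above. Akt1 was at 2.19, Scap at 1.31 and Insig1, a sterol-responsive SREBP partner, at 1.80, against Akt2 at −1.94, Nr1h3 (LXR alpha) at −3.38 and Mlxipl (ChREBP) at −3.29. Srebf1 rose by 0.93 (adjusted p = 0.017), Mbtps2 by 0.49, and Mbtps1 (−0.51) and Mid1ip1 (−0.73) fell. None of the 14 rose and 12 fell on the deposited scale, beside 350 and 14350 of all genes. There Srebf1 was at −0.99 and Scap at −0.61. On the non-milk scale Srebf1 was not called in NZB on day 8 (0.48, limma adjusted p = 0.21). Nor was Srebf1 called in C57 on day 14 or 21 against non-lactating glands (−0.40 and −0.41). Insig1 averaged 441 non-milk CPM in C57 and 68.9 in NZB on day 21, a difference of −2.72 (adjusted p = 1.4e-06; −1.35 on the deposited scale). Akt1 (−0.92) and Mid1ip1 (−0.77) were lower there too on the non-milk scale, but stood at 0.44 and 0.40 on the deposited scale, and Nr1h3 (1.20 and 2.14) was higher on both. That comparison had 1 of the 14 higher and 3 lower (background 19.3% and 5.49%). The deposited scale had 12 higher and 1 lower, beside 13774 and 162 of all genes.

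Of 13 genes of NADPH supply other than Me1, 5 were called lower and none higher in C57 on day 8, and in NZB 4 lower and 2 higher, the lower shares being near the background of 31% and 32.3%. Idh1 (−3.14), Me2 (−1.92), Tkt (−1.03) and Idh2 (−0.69) fell in C57, and G6pdx (0.99) and Nnt (0.48) rose in NZB on the non-milk scale, with −0.90 and −1.36 on the deposited scale. Idh2 (1.97), Idh1 (2.16) and Me2 (1.17) were higher in NZB than in C57 on day 21, as 3 of 13, near the background of 19.3%. All 13 fell on day 8 in both genotypes on the deposited scale, and all 13 were higher in NZB than in C57 on day 21. Most genes moved so on that scale. On day 8, 14350 genes were lower in C57 and 14319 in NZB, and on day 21, 13774 were higher in NZB than in C57. Among 10 genes of carboxylase control, 1 rose and 2 fell in C57 on day 8. Prkaa2, a catalytic subunit of the AMP-activated kinase that inhibits both carboxylases, rose by 4.72 (2.79 on the deposited scale), and its relative Prkaa1 (−2.22) and Prkab2 (−2.23) fell. Prkaa2 averaged 687 non-milk CPM in C57 and 125 in NZB on day 21 (−2.53, limma adjusted p = 2.4e-06). There Stk11 was lower (−0.49, but 0.85 on the deposited scale) and Prkaa1 (1.61) and Prkab2 (1.28) were higher. The deposited scale had 9 of the 10 higher and 1 lower, beside 13774 and 162 of all genes. Of 8 measured genes of the separate mitochondrial synthesis pathway none rose and 2, Oxsm (−0.80) and Mcat (−1.06), fell in C57 on day 8, a share near the background of 31%.

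Markers of the cells that express this pathway moved with the stages and, on day 21, with the genotypes. The 11 white adipocyte markers summed to 9347 to 15750 non-milk CPM (C57) and 6575 to 18258 (NZB) in non-lactating mice, and to 445 to 1382 in all lactating mice except those of NZB on day 21. All 11 were lower on day 8 in both genotypes (background 31% in C57 and 32.3% in NZB). List medians were −4.16 in C57 and −3.91 in NZB, and none of the 11 was at 0 in any group. C57 non-lactating replicate 2 and NZB non-lactating replicate 3 had the lowest adipocyte sums of their groups (9347 and 6575) and the lowest levels of Fasn, Acaca, Acly, Thrsp, Me1, Slc25a1, Acacb and Acss2. NZB day 21 mice held 5931, 1801 and 1835 of the adipocyte markers, and replicate 1, the highest, also held the most Fasn and Olah of its group. Adipoq averaged 165 there against 26.5 in C57 on day 21, and 9 of the 11 were called higher (background 19.3%, list median 2.05).

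Secretory epithelium markers ran the other way on day 21. The 6 that remain on the non-milk scale summed to 80.3 to 234 non-milk CPM in non-lactating mice, to 12202 to 19111 in C57 lactating mice and NZB mice on days 8 and 14, and to 2997 to 3002 in NZB mice on day 21. Of the 6, 5 were lower in NZB than in C57 on day 21 (background 5.49%, median −1.98). Among them was Btn1a1, a milk fat globule protein, with means of 7362 in C57 and 1738 in NZB. Luminal epithelium markers as a whole were higher in NZB on day 21, at 1389 to 1817 against 497 to 728 in C57 (4 of 5 called, background 19.3%). Fibroblast (5 of 5) and macrophage markers (3 of 4) were higher too, beside the same background. In non-lactating glands all 5 luminal and all 5 myoepithelial markers were lower in NZB than in C57 (medians −2.70 and −1.99, background 3.38%). There 6 of 8 lymphocyte markers were higher (median 3.11, background 1.67%). Brown adipocyte markers were led by Cidea, which lactating epithelium also expresses, while Ucp1 averaged at most 4.19 non-milk CPM in any group. The part of these shifts in cell makeup in the levels of the 9 genes was not tested.

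**Figure D5:**
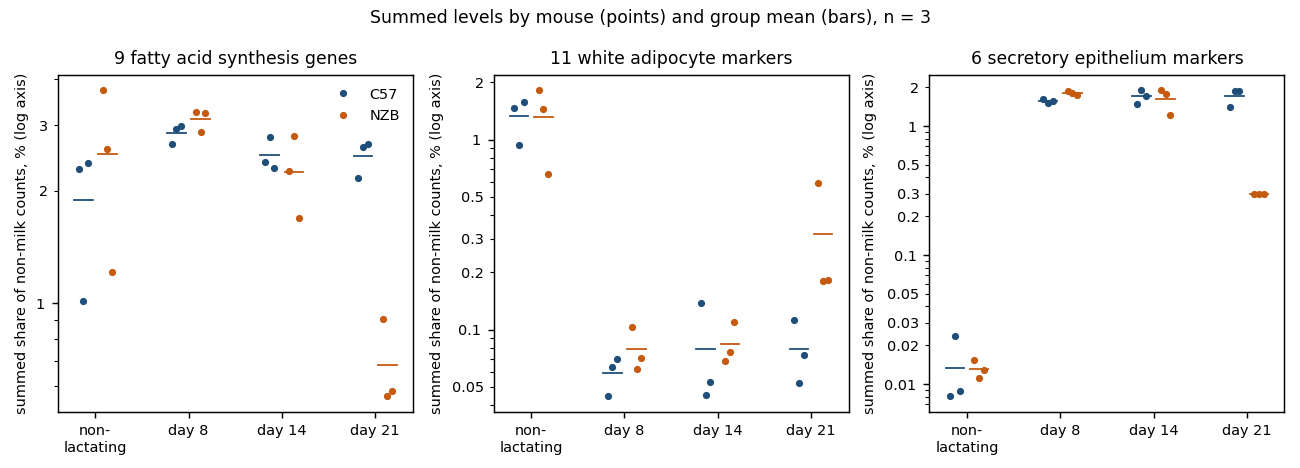
Summed share of all non-milk counts, in percent on a log axis, of the 9 fatty acid synthesis genes, 11 white adipocyte markers and 6 secretory epithelium markers, with 1 point for each mouse and a bar at the mean of 3. The 9 genes held 1.01% to 3.73% in non-lactating mice, 1.69% to 3.25% in lactating mice other than NZB day 21, and 0.563% to 0.906% in NZB day 21 mice.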

How the data were processed

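The 24 libraries (8 groups of 3 mice) come from 1 deposited table of log10 values with 48 columns, which the authors name logCPM. Aligner, counter and strand setting were not given in the sources used here; the submitters' processing notes name GRCm38 and mm10. The deposited log10 values turned back as 10 to the value less 1 summed to 1000000 in every column, and at a tolerance of 0.05 100% of them were whole reads. Milk protein genes left out were Csn1s1, Csn1s2a, Csn1s2b, Csn2, Csn3, Wap, Lalba, Glycam1, Wfdc18, Wfdc21, Cel, Ltf, Trf, Spp1, Mfge8, Lpo and Slpi.

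Genes above 1 non-milk CPM in at least 3 samples were tested on log2(CPM + 1) with limma 3.58.1 (R 4.3.3; lmFit and contrasts.fit, then eBayes with its trend option), with 8 group means, 16 residual degrees of freedom, 2-sided, Benjamini-Hochberg adjusted within each of 16 comparisons, threshold 0.05. A pseudocount understates changes of low genes. Titles name separate mice in each group. All 9 members were named, and of each list up to 4 genes with the smallest adjusted p and called genes against its majority; Adipoq, Btn1a1, Cidea, Ucp1, Srebf1 and the remaining called control genes were added after values were seen. The members and lists were chosen with earlier results of these data known. Positions, lengths of principal transcripts and overlaps are from GENCODE release 21 for mouse, promoter windows from RefSeq (GRCm38.p6), with 9 of 9 members matched. Simulated for C57 day 8 against non-lactating glands (16777 genes), the fit called 31% of the 100 genes set to 2-fold and 76% of the 100 set to 4-fold, with 3 false of 110 calls. Simulated for NZB day 21 against day 14 (16731 genes), it called 24% and 70%, with 7 false of 101 calls, and for NZB against C57 on day 8 (16756 genes) 23% and 70%, with 8 false of 101. Alternatives covered scale, milk gene list, pseudocount, filter, TMM factors, samples in the fit, variance trend, columns, replicate block, left-out replicates and limma voom on recovered reads. Figures and ratios used matplotlib 3.10.9, scipy 1.17.1, pandas 2.3.3 and numpy 2.4.6 under Python 3.11.15.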

Additional observations from a re-analysis of the deposited data

Results flagged for a closer look

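In 5 of the 9 genes the change from day 14 to day 21 differed between the genotypes by limma's test of the difference itself, given as NZB less C57 on the log2 non-milk scale. The differences were −4.02 for Olah (SE 0.48, adjusted p = 2.9e-05), −3.15 for Acacb (SE 0.62, adjusted p = 0.0043), −2.11 for Acly (SE 0.44, adjusted p = 0.0074), −1.96 for Thrsp (SE 0.51, adjusted p = 0.025) and −1.86 for Acaca (SE 0.51, adjusted p = 0.033). Each gene was lower in all 3 NZB day 21 mice than in all 3 NZB day 14 mice, while the C57 groups overlapped. On the deposited scale Olah (−2.60, adjusted p = 7.8e-05) and Acacb (−1.73, adjusted p = 0.0081) passed, and Acly (−0.68), Thrsp (−0.54) and Acaca (−0.44) did not.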

How the results depend on the processing

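On the deposited scale 35 of 144 gene differences turned sign, 25 of them called on one scale or both, which follow. Against non-lactating glands on days 8, 14 and 21 these were Acaca −0.65, −0.62 and −0.61, Acly −0.42, −0.85 and −0.84, Me1 −1.46, −0.69 and −0.71, and Thrsp −0.15, −0.90 and −0.80 in C57. Fasn (−1.75) and Slc25a1 (−0.52) turned in C57 on day 8. In NZB on days 8 and 14 they were Acaca −0.66 and −1.44, Acly −1.06 and −1.34, Me1 −1.36 and −1.03, and Thrsp −0.86 and −0.97, with Slc25a1 −1.37 on day 8. Me1 turned to 0.39 in NZB on day 21 against day 14 and to 0.17 against C57. Other settings turned the sign of 69 values, none called with either sign and none above 0.54 in size as reported.

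Counts of the 9 genes called moved by over 1.5 times as follows. The deposited scale gave 8 for NZB day 14 against non-lactating, 3 for NZB day 21 against day 14, 3 for NZB against C57 on day 21 and 2 for the genotype difference in the change to day 21. Without a filter on low values the counts were 3 for C57 day 14 and 3 for day 21 against non-lactating, and 2 for NZB day 14. They were 1 for NZB against C57 without lactation and 3 for the genotype difference, and the cause was not tested. With only the groups compared, NZB day 8 gave 3 and day 14 gave 2 against non-lactating, and the non-lactating genotypes gave 0. In that setting C57 day 14 against day 8 gave 3 and NZB day 14 against day 8 gave 1. Why these counts moved both ways was not tested. TMM factors and limma voom each gave 1 for the non-lactating genotypes. TMM factors also moved all calls in C57 on day 8 from 2113 higher and 5238 lower to 3309 and 3788. Without NZB non-lactating replicates 2 and 3 together, NZB day 8 gave 3, NZB day 14 against day 8 gave 1 and the non-lactating genotypes 1.

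Leaving out 1 mouse gave 6 to 6 called in C57 on day 8 against non-lactating, 3 to 6 on day 14 and 4 to 6 on day 21, and in NZB 3 to 7, 2 to 5 and 6 to 8. It gave 6 to 7 for NZB day 21 against day 14, 7 to 7 for NZB against C57 on day 21, 1 to 2 without lactation and 3 to 5 for the genotype difference in the change to day 21. C57 day 14 against day 8 gave 0 to 1. With the F number as a replicate block all 144 gene results kept their side of the threshold and C57 day 8 against non-lactating still gave 6. Deviations of same-numbered mice had a median correlation of 0.0074, beside 0.0028 for other numbers, so the numbers were not taken as pairs. The planned edgeR fit was not run, and limma voom took its place after the data had been seen. Among the 9 genes depth is thinnest for Olah, which in C57 non-lactating mice rests on 23 to 28 reads.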
